A study of Macaca mulatta with 13 samples.

Results

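Type I interferon response genes are a group of 43 genes that blood cells switch on after exposure to type I interferon. They were taken by symbol from a list, and a probe set belonged to a gene when the platform annotation paired it with that symbol alone. Of the 43 genes, 33 had at least 1 such probe set, out of 14132 genes named in this way on the array. Together they had 65 of the 52707 probe sets that are not controls. The other 10 genes, IFIT5, IFI6, IFI44L, RSAD2, HERC5, IRF9, USP18, EIF2AK2, SAMD9 and ADAR, had no probe set paired with their symbol alone and were not analysed here. Of the 33 genes, 15 had 1 probe set and 18 had several, up to 6 for IFIT2 and for SP110. Each gene is described below at its probe set of highest mean over all arrays, called its brightest. Other probe sets are given for some of the genes where they differ. Tests were limited to probe sets with a mean above 6.04, the median of all probe-set means on the log2 scale. By this filter 57 of the 65 probe sets were tested, and 32 of the 33 genes at their brightest probe set. CMPK2 was the exception, so its values are given without a test.

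The samples were peripheral blood mononuclear cells, the lymphocytes and monocytes of the blood, from 13 rhesus macaques aged 4 months. The groups were 4 surrogate-peer reared animals, 4 peer reared animals and 5 maternally reared animals, with 1 array of total RNA per animal. No treatment, infection or genotype is named in the labels, and sex was not used here. Values are log2 expression values, so a difference of 1 is a 2-fold difference, and levels of different probe sets are not compared with each other. A named probe set was at hand for 12 of 13 monocyte markers, 7 of 9 markers of natural killer and cytotoxic cells, 5 of 7 B cell markers and 4 of 10 T cell markers. The mean signal of every one of these measured markers lay above the 6.04 filter.

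Type I interferons bind a receptor of IFNAR1 and IFNAR2 on nearly every cell, and the kinases JAK1 and TYK2 then phosphorylate STAT2. It joins IRF9 in a complex that enters the nucleus and binds interferon-stimulated response elements in the promoters of the response genes. The products sense viral RNA, block its translation, degrade it, trap viral particles or amplify the signal, and in blood their transcripts are widely read together as an interferon signature. The roles given below are those known from work in human and mouse cells.

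In 28 of the 33 response genes the highest value lay in 1 of 2 animals. Maternal array 5 held the highest value of all 13 arrays in 18 of the 33 genes and maternal array 2 in 10. These 2 arrays were together the highest pair in 23 genes, or 69.7%, against 5.05% of all tested probe sets. The pair was noticed on these same genes, so this count is a description and no test. The 10 genes without this pattern were BST2, DDX60, DHX58, IFI35, IRF7, LGALS3BP, OAS1, RTP4, SAMD9L and UBE2L6. However, a second probe set of DDX60 and a second one of IRF7 had it. The other 3 maternal animals all lay within the range of the 8 surrogate-peer and peer animals in 16 genes. In 12 genes at least 1 of them lay above every surrogate-peer and peer animal, array 4 in 10 genes, array 3 in 5 and array 1 in 2.

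**Figure D1:**
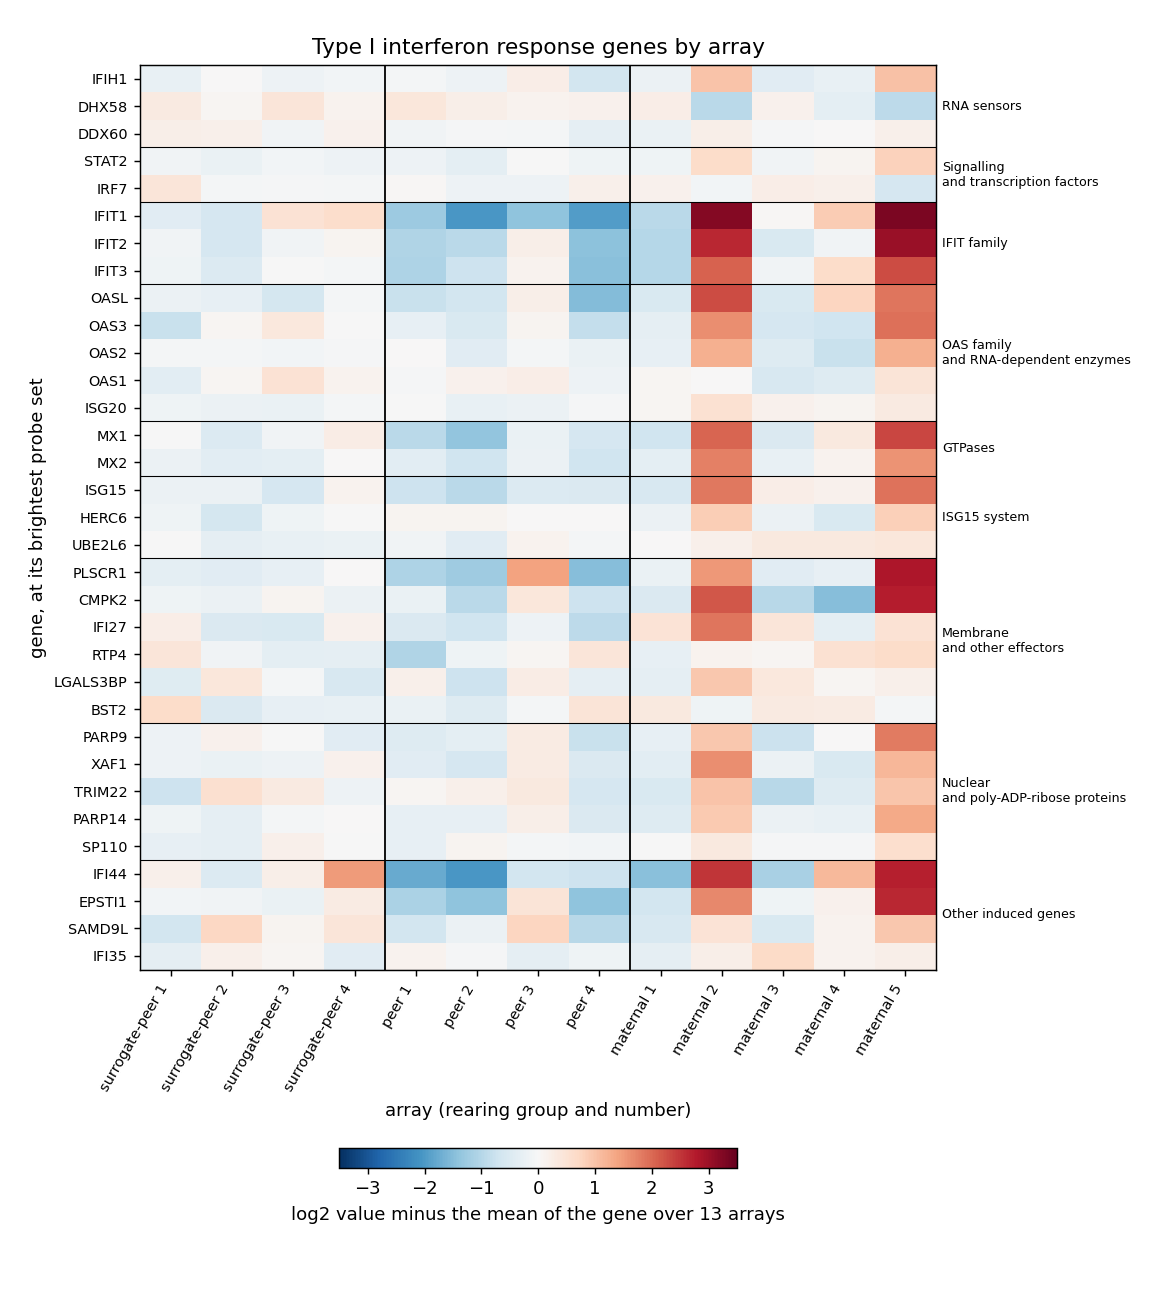
Log2 expression value of each response gene on each array, minus the mean of that gene over the 13 arrays (colour scale in log2 units, rows are 33 genes at their brightest probe set grouped by role, columns are arrays). Maternal arrays 2 and 5 are the highest pair in 23 of the 33 rows.

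The mean over the 33 genes of each array's deviation from the gene's own mean placed the arrays on one scale. Among surrogate-peer animals it was -0.13, -0.16, -0.07 and 0.03. Among peer animals it was -0.43, -0.55, 0.05 and -0.56, and among maternal animals -0.33, 1.13, -0.20, -0.02 and 1.25. The surrogate-peer animals lay close together, peer array 3 stood above the other 3 peer arrays, and the maternal animals spanned the widest range. Group means of this deviation were -0.08 ± 0.08 in surrogate-peer animals (SD, n = 4), -0.37 ± 0.29 in peer animals (SD, n = 4) and 0.36 ± 0.76 in maternal animals (SD, n = 5). Without arrays 2 and 5 the maternal mean was -0.19 ± 0.16 (SD, n = 3), between the means of the other groups. In 29 of the 33 genes the SD within a group was largest in the maternal animals, against 57.6% of tested probe sets. The median SD of a gene was 0.24 in surrogate-peer, 0.38 in peer and 0.80 in maternal animals, against 0.17, 0.14 and 0.23 over all tested probe sets.

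The study's question was whether expression in blood cells differs with early rearing. The mean of the surrogate-peer and peer groups, called non-maternal below, was first set against the maternal group. In limma with Benjamini-Hochberg adjustment over 26352 probe sets and a threshold of 0.05, 2 of the 32 tested genes were lower in non-maternal animals, ISG20 and UBE2L6, and 0 were higher. Called genes were thus 6.25% of those tested, while 8% of all tested probe sets were called in either direction, 6.64% higher and 1.35% lower. Centring each array on its median moved the split of all called probe sets to 1094 higher and 834 lower, against 1751 and 356, and left ISG20 and UBE2L6 called. In either direction together the share of response genes was no larger than that of all probe sets. Among lower calls alone it was 6.25% against 1.35%, a share that rests on 2 genes. At an unadjusted p under 0.05, 11 of the 32 tested genes were lower and 1 was higher, against 10% and 19% of all tested probe sets. Without maternal array 1 the number of called genes was 10, in a fit that called 18.3% of all tested probe sets. It was 0 without any single one of maternal array 4, maternal array 5, peer array 1, peer array 2 and surrogate-peer array 3. Those fits called 0.114%, 0.228%, 1.17%, 2.71% and 1.8% of all tested probe sets, so few calls were open to any gene. The number was 1 (ISG20) without maternal array 3, peer array 4 or surrogate-peer array 4, beside 4.55%, 3.36% and 4.63%. The fold change was negative in 30 of 33 genes (90.9%), against 49% of all tested probe sets, and its median was -0.42 (range -2.11 to 0.59), against 0.01. In a mixed cell sample such as this, fewer cells of a type and less RNA per cell cannot be told apart.

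Each rearing group was also set against the same 5 maternal animals, so these comparisons share them. Surrogate-peer against maternal called 0 of 32 genes and 0% of all tested probe sets. At an unadjusted p under 0.05 this comparison had 3 genes lower and 1 higher, against 6.32% and 14% of all tested probe sets. Its median was -0.41 over the 33 genes, with 28 negative (84.8%, against 47.8% of all tested probe sets), and its smallest adjusted p was 0.0962, that of ISG20. Peer against maternal also called 0 of 32 genes, against 0.353% of all tested probe sets. At an unadjusted p under 0.05 it had 12 genes lower and 1 higher, against 8.2% and 16.7%. Its median was -0.43, with 30 of 33 negative (90.9%, against 49.4%), and its smallest adjusted p was 0.0627, that of IFIT1. Without maternal array 1 the called genes numbered 3 for surrogate-peer and 11 for peer against maternal, in fits that called 7.95% and 13.2% of all tested probe sets. DHX58 was the gene with a positive fold change at an unadjusted p under 0.05 in each of these comparisons.

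Complete separation of the groups was uncommon. All non-maternal animals lay below all maternal ones in 1 of 33 genes, ISG20, against 0.971% of tested probe sets. All surrogate-peer animals lay below all maternal ones in ISG20 and UBE2L6, against 2.48%. All peer animals lay below all maternal ones in IFIT1 and ISG20, against 3.85%. These 2 of 33 genes in each case are a small number to set beside those shares.

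ISG20, an exonuclease that degrades RNA, was the gene whose non-maternal and maternal ranges were fully apart. Its log2 values were 10.57, 10.49, 10.47 and 10.63 in surrogate-peer animals, 10.70, 10.44, 10.50 and 10.68 in peer animals, and 10.79, 11.24, 10.87, 10.82 and 11.03 in maternal animals. The highest peer value lay just under the lowest maternal one. ISG20 fell in non-maternal animals by 0.39 ± 0.09 (log2 difference ± SE, adjusted p = 0.0274). Without maternal arrays 2 and 5 the difference was -0.26 (adjusted p = 0.0990), and without single arrays the adjusted p lay between 0.0092 and 0.0703.

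UBE2L6, the enzyme that carries ISG15 to its targets, was the other gene called at its brightest probe set. Its values were 11.86, 11.55, 11.59 and 11.63 in surrogate-peer animals, 11.75, 11.47, 11.98 and 11.81 in peer animals, and 11.88, 12.05, 12.20, 12.19 and 12.25 in maternal animals. Only peer array 3 lay above the lowest maternal animal, and maternal arrays 2 and 5 did not stand apart from arrays 3 and 4. UBE2L6 fell in non-maternal animals by 0.41 ± 0.10 (SE, adjusted p = 0.0317). Its difference stayed at -0.38 without maternal arrays 2 and 5, where the adjusted p was 0.108, and without single arrays the adjusted p lay between 0.0086 and 0.0888.

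IRF7, the transcription factor that drives transcription of interferon-alpha genes, gave different answers at its 2 probe sets. At the brightest one the group means were 9.68 ± 0.24 in surrogate-peer (SD, n = 4), 9.58 ± 0.17 in peer (SD, n = 4) and 9.59 ± 0.34 in maternal animals (SD, n = 5), and the non-maternal difference was 0.04 ± 0.14 (SE, adjusted p = 0.867). At the second probe set the values were 8.35, 8.46, 7.98 and 8.33 in surrogate-peer animals, 7.85, 8.12, 8.82 and 7.92 in peer animals, and 8.34, 9.96, 8.98, 9.25 and 10.63 in maternal animals. There 4 of 5 maternal arrays lay above every non-maternal one, with arrays 2 and 5 the highest. This second probe set fell in non-maternal animals by 1.21 ± 0.32 (SE, adjusted p = 0.0415). The value without maternal arrays 2 and 5 was -0.63 (adjusted p = 0.146), and without single arrays the adjusted p lay between 0.0059 and 0.0929. Which probe set follows the IRF7 transcript was not tested.

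STAT2, the other signalling factor measured, had levels of 7.15, 7.04, 7.19 and 7.10 in surrogate-peer animals and 7.09, 6.94, 7.26 and 7.12 in peer animals. In maternal animals it had 7.14, 7.93, 7.15, 7.36 and 8.10. The high ones were maternal arrays 2 and 5, and arrays 1 and 3 lay among the non-maternal animals. The difference of -0.42 ± 0.16 (SE) did not pass the test (adjusted p = 0.103), and it was -0.10 without arrays 2 and 5.

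The IFIT genes, whose proteins bind foreign RNA and block its translation, held the lowest median fold change of the role classes, -1.30 over 3 of 4 genes measured. IFIT1, which binds RNA with an incompletely methylated cap, had values of 8.38, 8.21, 9.29 and 9.40 in surrogate-peer animals. It had 7.52, 6.75, 7.38 and 6.84 in peer animals, and 7.83, 11.997, 8.83, 9.67 and 12.07 in maternal animals. Every peer animal lay below every surrogate-peer and every maternal animal, and maternal arrays 2 and 5 stood far above the rest. The non-maternal difference was -2.11 ± 0.64 (SE, adjusted p = 0.0602), and the peer minus maternal one was -2.96 (adjusted p = 0.0627). Without maternal arrays 2 and 5 the non-maternal difference was -0.81.

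IFIT2, a partner of IFIT1 and IFIT3, had values of 9.60, 9.16, 9.60 and 9.82 in surrogate-peer animals, 8.68, 8.80, 9.93 and 8.29 in peer animals, and 8.75, 12.37, 9.20, 9.60 and 12.74 in maternal animals. IFIT3, which steadies IFIT1 in their shared complex, had 11.28, 10.95, 11.42 and 11.36 in surrogate-peer animals, 10.35, 10.71, 11.55 and 9.97 in peer animals, and 10.43, 13.50, 11.32, 12.08 and 13.71 in maternal animals. In both genes peer array 3 was the highest peer animal, and maternal array 1 lay within the non-maternal range. The non-maternal differences were -1.30 ± 0.64 for IFIT2 (SE, adjusted p = 0.196) and -1.26 ± 0.49 for IFIT3 (SE, adjusted p = 0.119). Without maternal arrays 2 and 5 they were 0.05 for IFIT2 and -0.33 for IFIT3.

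**Figure D2:**
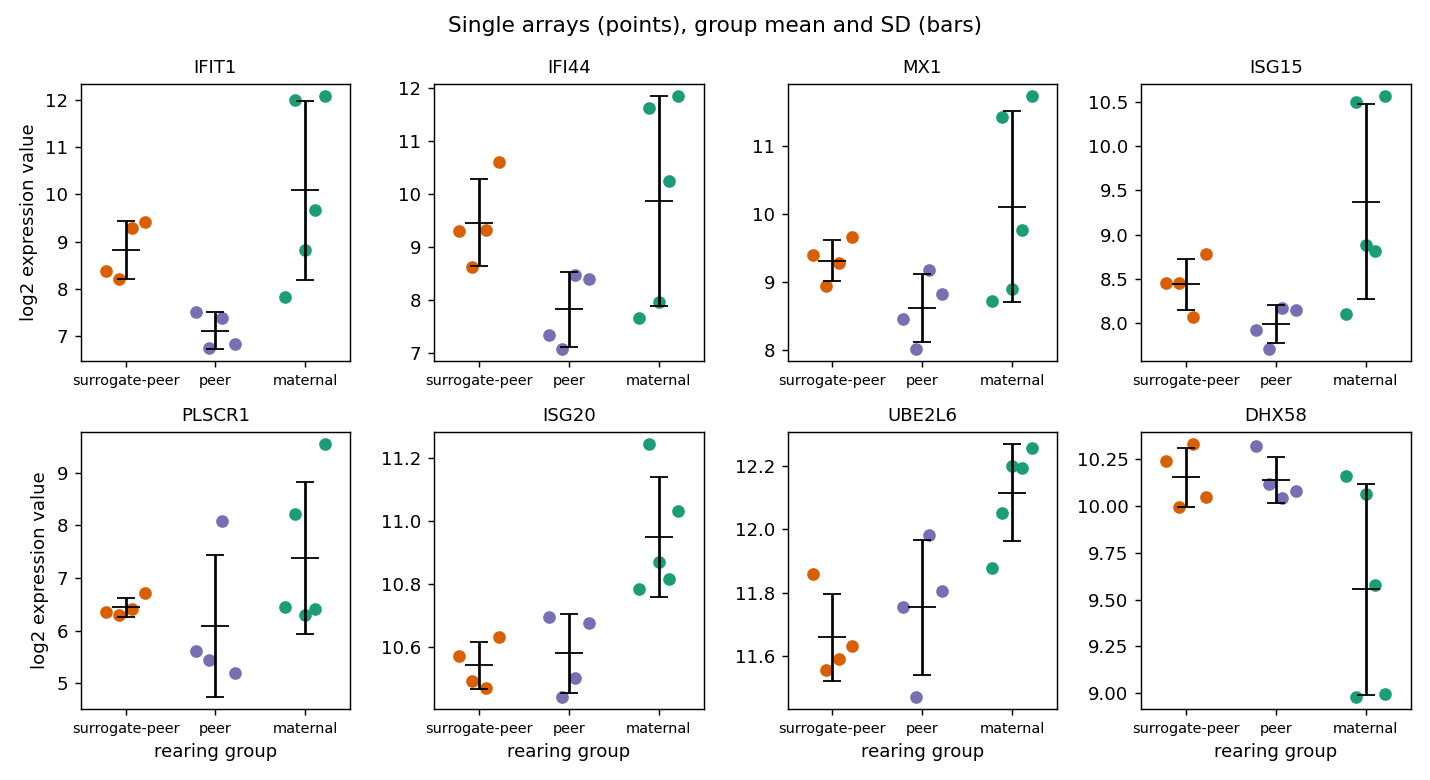
Log2 expression value (vertical axis) of 8 response genes by rearing group (horizontal axis), with a point per array and bars for the group mean and SD. In IFIT1, IFI44, MX1 and ISG15 maternal arrays 2 and 5 lie above all others, in ISG20 and UBE2L6 the maternal animals lie closer together, and in DHX58 maternal arrays 2 and 5 are the lowest.

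The OAS family makes short oligoadenylates that activate RNase L, which cuts RNA, and OASL lacks this activity but aids RNA sensing. OASL had values of 7.57, 7.47, 7.15 and 7.70 in surrogate-peer animals, 6.99, 7.13, 7.97 and 6.25 in peer animals, and 7.23, 10.04, 7.24, 8.51 and 9.63 in maternal animals. Its difference was -1.25 ± 0.47 (SE, adjusted p = 0.106). Maternal arrays 2, 4 and 5 lay above all non-maternal arrays.

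OAS3 was more even among the other animals, at 7.69, 8.54, 8.84 and 8.45 in surrogate-peer animals, 8.19, 7.94, 8.56 and 7.65 in peer animals, and 8.17, 10.11, 7.88, 7.77 and 10.40 in maternal animals. OAS2 spanned only 7.77 to 8.19 over the 8 non-maternal animals, while the maternal values were 7.90, 9.41, 7.72, 7.40 and 9.41. The differences were -0.64 ± 0.45 for OAS3 (SE, adjusted p = 0.353) and -0.31 ± 0.32 for OAS2 (SE, adjusted p = 0.532). In both genes the 3 remaining maternal animals averaged lower than the non-maternal ones, so that the difference without arrays 2 and 5 was 0.29 for OAS3 and 0.39 for OAS2.

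OAS1 did not follow the others. Its group means were 10.44 ± 0.36 in surrogate-peer (SD, n = 4), 10.41 ± 0.19 in peer (SD, n = 4) and 10.27 ± 0.42 in maternal animals (SD, n = 5), with the highest value, 10.87, on surrogate-peer array 3. Its difference was 0.16 ± 0.18 (SE, adjusted p = 0.573). None of its 5 probe sets had maternal arrays 2 and 5 as the highest pair. In the RefSeq gene order of the rhesus assembly T2T-MMU8v2.0, OAS1 and OAS3 are next to each other, with 0 protein-coding genes between them, and 1 gene separates OAS3 from OAS2.

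Both MX genes encode dynamin-like GTPases, of which MX1 traps nucleocapsids of RNA viruses and MX2 acts on lentiviruses. MX1 had values of 9.39, 8.94, 9.28 and 9.66 in surrogate-peer animals, 8.46, 8.02, 9.18 and 8.83 in peer animals, and 8.72, 11.43, 8.90, 9.76 and 11.74 in maternal animals. MX2 had 8.96, 8.80, 8.81 and 9.18 in surrogate-peer animals, 8.80, 8.45, 8.95 and 8.47 in peer animals, and 8.83, 10.91, 8.90, 9.28 and 10.74 in maternal animals. These neighbouring genes had the same high pair, and maternal array 4 was the highest of the remaining 11 arrays in both. The differences were -1.14 ± 0.48 for MX1 (SE, adjusted p = 0.140) and -0.93 ± 0.34 for MX2 (SE, adjusted p = 0.0989), and without arrays 2 and 5 they were -0.16 and -0.20.

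ISG15 is a ubiquitin-like protein that is attached to newly made proteins and is also secreted. Its values were 8.45, 8.46, 8.07 and 8.78 in surrogate-peer animals, 7.93, 7.71, 8.17 and 8.16 in peer animals, and 8.11, 10.49, 8.88, 8.81 and 10.56 in maternal animals. Of the maternal animals, 4 of 5 lay above all non-maternal ones, arrays 3 and 4 by a small margin. The difference was -1.16 ± 0.37 (SE, adjusted p = 0.0687), and -0.39 without arrays 2 and 5.

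HERC6, which attaches ISG15 in mouse cells, had 9.37, 8.90, 9.38 and 9.50 in surrogate-peer animals, 9.61, 9.62, 9.53 and 9.54 in peer animals, and 9.32, 10.38, 9.30, 8.98 and 10.35 in maternal animals. Its difference was -0.23 ± 0.23 (SE, adjusted p = 0.50), turning to 0.23 without maternal arrays 2 and 5. The peer animals were almost equal to each other, unlike in the IFIT genes. The ISG15 system as a whole had a median of -0.41 over 3 of 5 genes measured.

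The cytosolic RNA sensors showed opposite values within 1 class. IFIH1, also known as MDA5 and a sensor of long duplex RNA, had 9.51, 9.76, 9.57 and 9.67 in surrogate-peer animals, 9.69, 9.59, 9.98 and 9.12 in peer animals, and 9.55, 10.77, 9.35, 9.50 and 10.78 in maternal animals. DHX58, also known as LGP2 and a regulator of the other sensors, had 10.24, 9.997, 10.33 and 10.05 in surrogate-peer animals, 10.32, 10.12, 10.04 and 10.08 in peer animals, and 10.16, 8.98, 10.06, 9.58 and 8.996 in maternal animals. IFIH1 was thus highest and DHX58 lowest on the same pair, maternal arrays 2 and 5.

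DHX58 was the only response gene with maternal arrays 2 and 5 as the lowest pair, a pattern found in 10.8% of all tested probe sets. Its non-maternal difference was 0.59 ± 0.19 (SE, adjusted p = 0.0747), and that of IFIH1 was -0.38 ± 0.26 (SE, adjusted p = 0.334). Without arrays 2 and 5 they were 0.21 for DHX58 and 0.14 for IFIH1. DHX58 has an established role as an interferon-induced gene, and whether its probe set follows the expected transcript was not tested. The third sensor, DDX60, had a difference of -0.04 at its brightest probe set (adjusted p = 0.785) and of -0.82 ± 0.47 at a second one (SE, adjusted p = 0.259). At the second probe set maternal arrays 2 and 5 had 9.71 and 9.61, and the highest of the other arrays had 7.75.

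Among the membrane and other effectors, 6 of 8 genes were measured and all 6 had negative fold changes, with a median of -0.52. PLSCR1, a lipid scramblase that amplifies the response, had 6.36, 6.29, 6.41 and 6.71 in surrogate-peer animals, 5.61, 5.45, 8.09 and 5.20 in peer animals, and 6.45, 8.21, 6.30, 6.40 and 9.54 in maternal animals. Peer array 3 came close to maternal array 2, while the other peer animals were the lowest 3 of all 13. The difference of -1.12 ± 0.60 (SE) did not pass the test (adjusted p = 0.231).

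IFI27, a mitochondrial protein often used as a blood marker of interferon exposure, had 8.36, 7.63, 7.59 and 8.27 in surrogate-peer animals, 7.62, 7.43, 7.94 and 7.22 in peer animals, and 8.60, 9.99, 8.54, 7.78 and 8.64 in maternal animals. Here maternal array 2 stood apart alone, and 4 of 5 maternal animals lay above all non-maternal ones. Its difference was -0.95 ± 0.30 (SE, adjusted p = 0.0635), and -0.55 without arrays 2 and 5.

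CMPK2, a mitochondrial nucleotide kinase encoded next to RSAD2, was dim, with 5.72, 5.67, 5.97 and 5.67 in surrogate-peer animals, 5.66, 4.95, 6.29 and 5.17 in peer animals, and 5.38, 8.06, 4.91, 4.40 and 8.63 in maternal animals. It showed a split among the maternal animals, the lowest and the highest value of all arrays both lying in this group. LGALS3BP, a secreted glycoprotein, had group means of 8.89 ± 0.42 in surrogate-peer (SD, n = 4), 8.91 ± 0.45 in peer (SD, n = 4) and 9.31 ± 0.46 in maternal animals (SD, n = 5), and a difference of -0.41 ± 0.23 (SE, adjusted p = 0.253). BST2, known as tetherin for holding budding virus at the cell surface, had its highest value, 11.98, on surrogate-peer array 1. Its difference was -0.23 ± 0.20 (SE, adjusted p = 0.457), and maternal arrays 2 and 5 were the lowest of the maternal animals at 11.17 and 11.25.

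All 5 genes of nuclear and ADP-ribosylating proteins were measured, with a median fold change of -0.45. PARP9, part of an ADP-ribosylating complex that promotes the response, had 8.89, 9.21, 9.05 and 8.67 in surrogate-peer animals, 8.62, 8.71, 9.36 and 8.29 in peer animals, and 8.77, 10.004, 8.31, 9.07 and 10.88 in maternal animals. XAF1, a promoter of cell death, had 8.35, 8.32, 8.35 and 8.68 in surrogate-peer animals, 8.13, 7.96, 8.81 and 8.03 in peer animals, and 8.16, 10.17, 8.32, 8.004 and 9.71 in maternal animals. Both had maternal arrays 2 and 5 on top and the other 3 maternal animals within the non-maternal range.

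The differences were -0.56 ± 0.36 for PARP9 (SE, adjusted p = 0.316) and -0.54 ± 0.34 for XAF1 (SE, adjusted p = 0.303). Without arrays 2 and 5 they were 0.13 for PARP9 and 0.17 for XAF1. PARP14, a relative of PARP9 encoded 2 protein-coding genes away, had a difference of -0.45 (adjusted p = 0.294), and the nuclear body protein SP110 one of -0.26 (adjusted p = 0.204). TRIM22, a ubiquitin ligase, had a difference of -0.00 (adjusted p = 0.997), with maternal arrays 2 and 5 as its highest pair at 10.70 and 10.69 and maternal arrays 1, 3 and 4 at 9.17, 8.74 and 9.24.

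IFI44, a response gene of poorly understood function, had 9.29, 8.63, 9.32 and 10.59 in surrogate-peer animals, 7.35, 7.08, 8.46 and 8.40 in peer animals, and 7.66, 11.61, 7.96, 10.25 and 11.84 in maternal animals. Its maternal values covered more than 4 log2 units. EPSTI1, first described in epithelial and stromal cells, had 7.93, 7.92, 7.82 and 8.32 in surrogate-peer animals, 6.93, 6.64, 8.50 and 6.62 in peer animals, and 7.41, 9.71, 7.88, 8.20 and 10.67 in maternal animals. The differences were -1.22 ± 0.70 for IFI44 (SE, adjusted p = 0.261) and -1.19 ± 0.51 for EPSTI1 (SE, adjusted p = 0.147).

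SAMD9L, an inhibitor of translation and growth, had 10.81, 12.20, 11.58 and 11.88 in surrogate-peer animals, 10.83, 11.27, 12.23 and 10.49 in peer animals, and 10.92, 11.95, 10.94, 11.60 and 12.41 in maternal animals. IFI35, a partner of NMI, had 9.38, 9.89, 9.76 and 9.31 in surrogate-peer animals, 9.81, 9.66, 9.38 and 9.54 in peer animals, and 9.38, 9.90, 10.37, 9.81 and 9.89 in maternal animals. The groups overlapped in both, with differences of -0.15 ± 0.34 for SAMD9L (SE, adjusted p = 0.783) and -0.28 ± 0.15 for IFI35 (SE, adjusted p = 0.248).

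Leaving out maternal arrays 2 and 5, an alternative that asks how much of the comparison rests on them, left 8 non-maternal against 3 maternal animals. The pair was chosen because it was the highest in 23 of these 33 genes. Leaving it out had to move the differences of those genes upwards. The changes and p-values below are therefore a description and no test of the pair. The median over the 33 genes was then -0.10, against -0.42 with all 13 arrays, and 18 genes had a negative difference, against 30. limma called 0 of 32 genes, and at an unadjusted p under 0.05 it had 3 lower (IFI27, ISG20 and UBE2L6) and 2 higher (OAS2 and TRIM22). In the same fit 0.14% of all tested probe sets were called and 22.9% had an unadjusted p under 0.05. The fold changes of 13 genes, among them IFIT2, IFI44, OAS2, OAS3, IFIH1, HERC6, PARP9 and XAF1, turned positive, to between 0.019 and 0.74, and that of IRF7 turned negative. ISG20 and UBE2L6, called with all arrays, stayed negative.

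**Figure D3:**
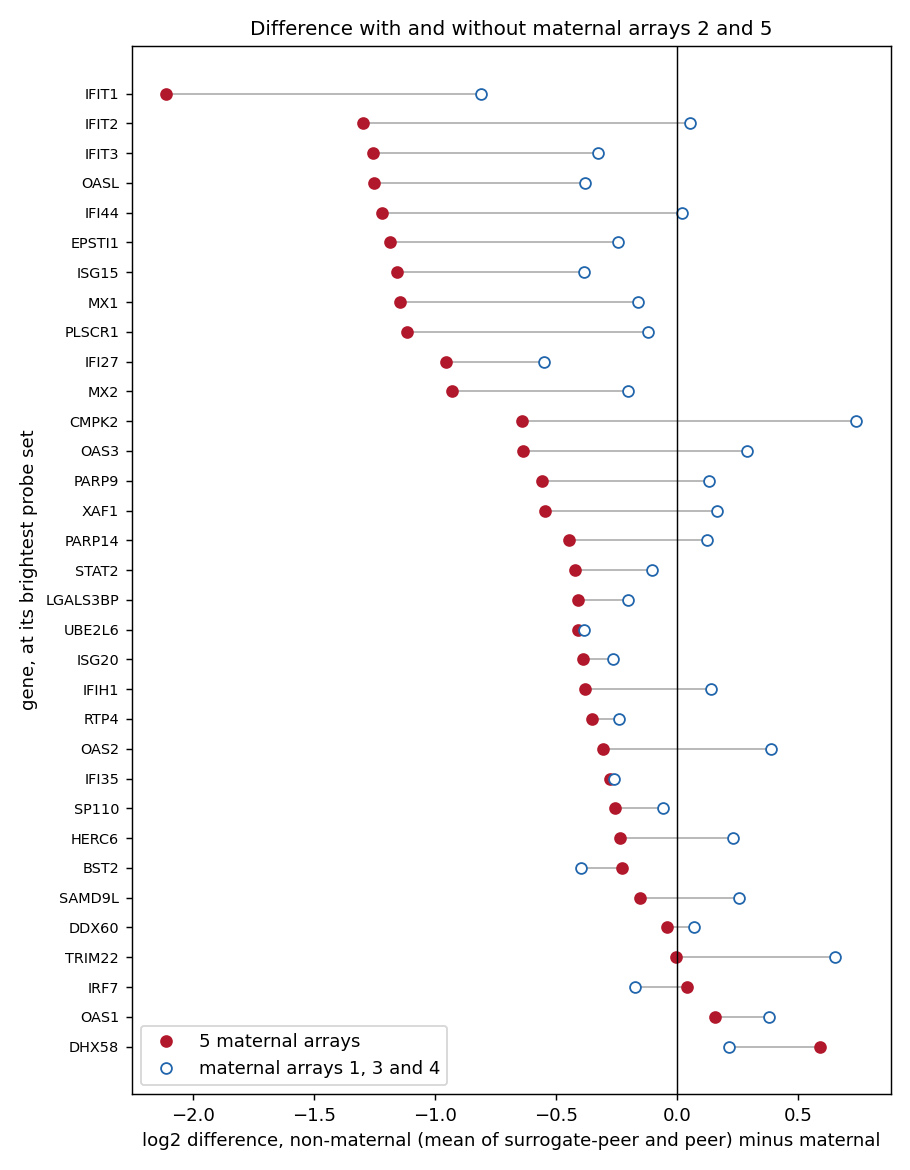
Log2 difference, non-maternal minus maternal (horizontal axis), of each response gene at its brightest probe set (vertical axis), with all 5 maternal arrays (filled points) and with maternal arrays 1, 3 and 4 alone (open points). Most differences move towards or past 0 without arrays 2 and 5, from -2.11 to -0.81 for IFIT1, while those of UBE2L6 and IFI35 hardly move.

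The surrogate-peer and peer groups were compared with each other, a comparison that does not involve the maternal arrays except in the shared estimate of spread. It called 0 of 32 response genes and 0% of all tested probe sets, and at an unadjusted p under 0.05 it had 0 genes, against 1.83% of all tested probe sets. Fold changes were positive in 25 of 33 genes, with a median of 0.19 and a range from -0.29 to 1.70. Over all tested probe sets 49.8% had a negative fold change. The smallest unadjusted p of a gene was 0.0536 (limma), for IFIT1, with an adjusted p of 0.99994. These p-values rest on the shared spread, and in 29 of the 33 genes the SD was largest in the maternal animals. The count of 0 genes at an unadjusted p under 0.05 therefore depends on the maternal arrays too.

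In 2 of 33 genes, IFIT1 and IFI44, every surrogate-peer animal lay above every peer animal, as in 0.869% of tested probe sets. The differences were 1.70 ± 0.80 for IFIT1 and 1.64 ± 0.87 for IFI44 (SE from the spread shared by all 13 arrays, n = 4 each). The SDs of IFIT1 were 0.61 in surrogate-peer, 0.38 in peer and 1.90 in maternal animals. Those of IFI44 were 0.82, 0.71 and 1.97, so the maternal animals widened both SEs. The second probe set of IFI44 had the same separation, with a difference of 1.56. In HERC6 every surrogate-peer animal lay below every peer animal, as in 0.873% of tested probe sets, with a difference of -0.29 ± 0.28 (SE). Peer array 3 was the highest peer animal in 22 of the 33 genes, whereas peer array 4 held the lowest value of all 13 arrays in 12 genes and peer array 2 in 10.

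Of 14 genes with more than 1 tested probe set, 2 had probe sets of opposite sign for non-maternal minus maternal, IFIT2 and IRF7. IFIT2 had 6 probe sets. The brightest and a second one gave -1.30 and -1.48, and the other 4 gave 0.31, 0.12, 0.24 and 0.23. Maternal arrays 2 and 5 were the highest pair in the first 2. In the other 4 maternal array 2 was the highest of the 13 arrays, while maternal array 5 lay below the mean, with 9.54 on array 2 and 7.997 on array 5 against a mean of 8.69 in the brightest of them. In the RefSeq order IFIT2 and IFIT3 are neighbours with 0 protein-coding genes between them, and IFIT1B lies between IFIT3 and IFIT1. Other genes kept 1 sign but differed in size for non-maternal minus maternal. The tested probe sets of OAS3 ran from -0.64 to -0.18 and those of SP110 from -0.26 to -0.06. Those of SAMD9L gave -0.35 and -0.15. Of all 65 probe sets, 6 have names that mark possible cross-hybridisation, and 38 had maternal arrays 2 and 5 as their highest pair.

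**Figure D4:**
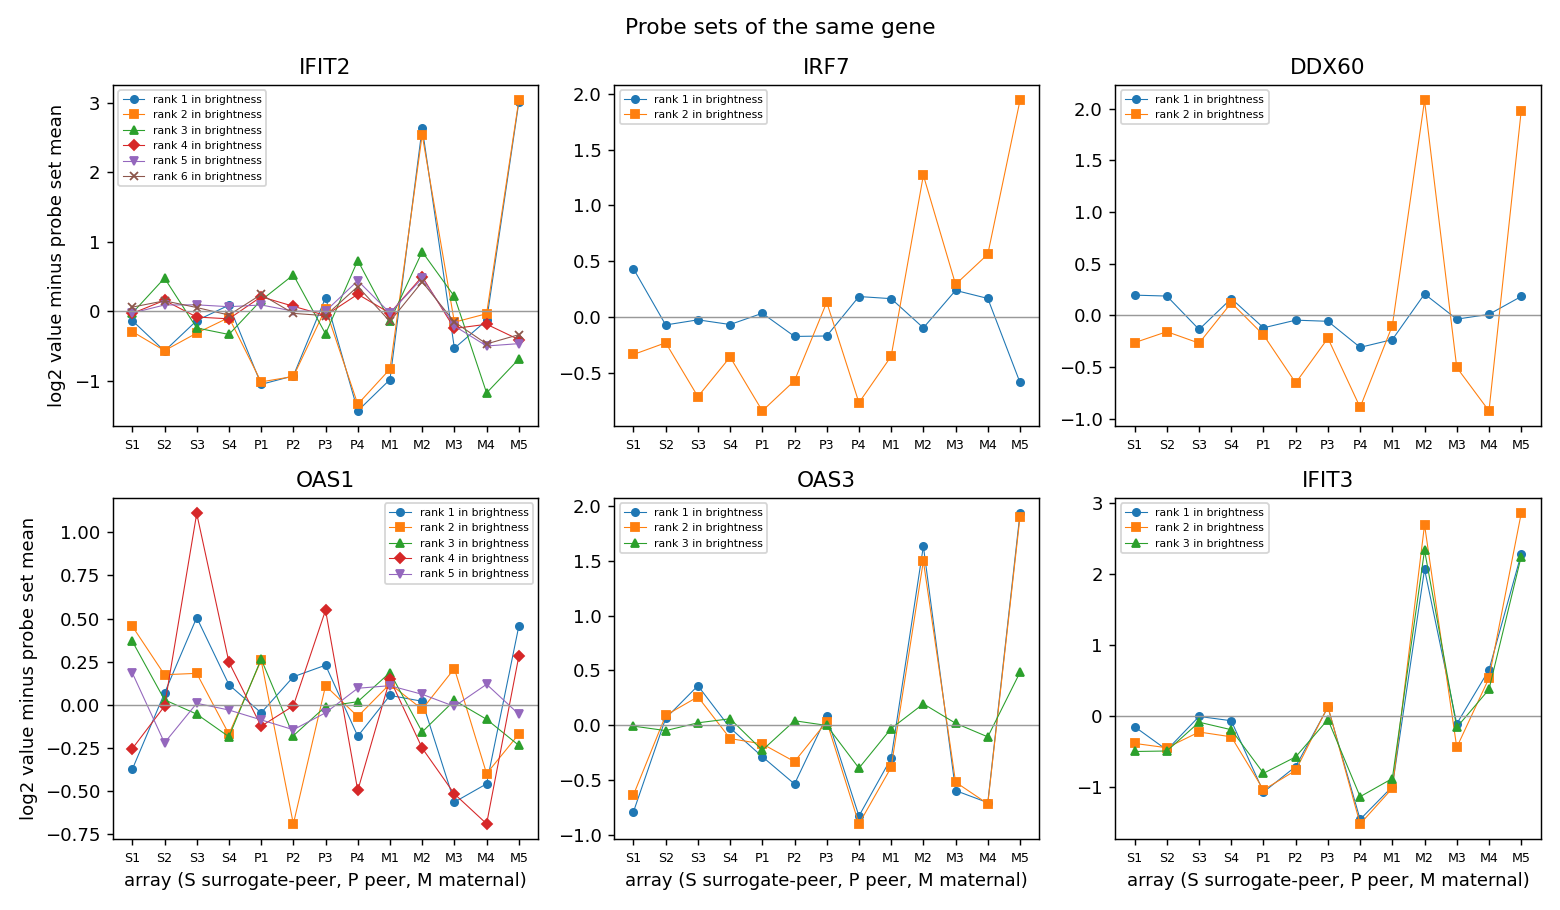
Deviation of each probe set from its own mean over the 13 arrays (vertical axis, log2 units) on each array (horizontal axis, S for surrogate-peer, P for peer and M for maternal), for genes with several probe sets, with a line per probe set. In IFIT2 and IRF7 some probe sets are high on both maternal arrays 2 and 5, while others are lower on array 5 than their own mean.

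Genes up- and downstream of the response, taken from lists of the pathway's other parts, had 0 members called in each of the 4 comparisons. Of all tested probe sets, 8% were called for non-maternal minus maternal and 0.353% for peer minus maternal. The share was 0% for surrogate-peer minus maternal and for surrogate-peer minus peer. A count of 0 therefore tells little outside non-maternal minus maternal. Of the receptor and its kinases, IFNAR2 and TYK2 were measured, with non-maternal minus maternal differences of -0.18 and -0.08. Of the interferon genes themselves, IFNA21, IFNB1 and IFNK had a probe set, none bright enough to be tested, and their median difference was -0.05. The list of sensors and adaptors had 16 genes measured, 14 of them tested, and a median of -0.06. TLR9, the endosomal DNA sensor, had the smallest p of these, with a difference of -0.28 (adjusted p = 0.0519). TRAF3, an adaptor of the sensors, followed with 0.28 (adjusted p = 0.067), and IRF5, a transcription factor downstream of Toll-like receptors, with -0.33 (adjusted p = 0.098).

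Genes that restrain the pathway had 8 of 9 measured, 7 tested and a median of -0.16. Among them PIAS1, a SUMO ligase, had a difference of 0.29 (adjusted p = 0.098), and NLRC5, a regulator of MHC class I genes and of signalling, one of -0.42 (adjusted p = 0.114). Interferon-induced genes outside the 43 had 19 of 30 measured, 16 tested and a median of -0.11. SP100, a nuclear body protein, had a difference of -0.43 (adjusted p = 0.0688), and ZNFX1, a helicase-like sensor, one of -0.42 (adjusted p = 0.092). Maternal arrays 2 and 5 were the highest pair in 9 of these 19 genes and in 4 of the 16 sensors and adaptors. They were so in 4 of the 8 restraining genes and in 0 of the 2 receptor and kinase genes. The share over all tested probe sets was 5.05%.

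Some other measures moved with the response genes. The mean deviation of 12 monocyte markers was -0.14, 0.55, -0.49 and 0.13 in surrogate-peer animals, -0.20, -0.27, 0.18 and -0.48 in peer animals, and -0.45, 0.68, -0.34, 0.11 and 0.73 in maternal animals. The highest arrays were again maternal 2 and 5, which were the highest pair in 4 of the 12 markers, against 5.05% of all tested probe sets. Surrogate-peer array 2, with the next highest monocyte value, had a mean deviation of response genes of -0.16, in a group that covered -0.16 to 0.03. The summed log2 level of these markers covered 15.31 to 16.35 in the surrogate-peer group, 15.16 to 15.99 in the peer group and 14.99 to 16.30 in the maternal group. The part of the monocyte markers in the response genes was not tested.

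Markers of plasmacytoid dendritic cells, the main producers of type I interferon, had 5 of 9 genes measured, and CLEC4C, LILRA4, IL3RA and SPIB were not among them. Their mean deviation was 0.27 on maternal array 2 and -0.14 on maternal array 5. T cell markers were at -0.56 and -0.49 on these arrays. Markers of natural killer cells were at 0.50 and -0.07, those of neutrophils at 0.20 and 0.76, and those of platelets at 0.83 and -0.53. The platelet list thus had opposite signs on the 2 arrays, while the neutrophil list was positive on both and higher on array 5. The natural killer value of array 5 rests on GNLY, at 6.63 there and between 11.99 and 13.23 on the other maternal arrays. Every other measured natural killer marker lay above its own mean on array 5.

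The lists of natural killer and B cell markers had another order of arrays than the response genes. The natural killer list covered -1.09 to 0.51 in the surrogate-peer group and -0.70 to 0.36 in the peer group. In the maternal group it covered -0.07 to 1.03, with its highest values on arrays 1, 3 and 4. Single markers weigh heavily in this list. On surrogate-peer array 3, which held the lowest value, KLRC1 was 4.08 against a mean of 8.90 over all arrays. GNLY lowered the list in the same way on maternal array 5. The B cell list covered -1.13 to -0.20 in the surrogate-peer group, -0.35 to 0.53 in the peer group and 0.023 to 0.91 in the maternal group. Its highest value of all arrays, 0.91, lay on maternal array 2, and maternal array 5 was at 0.18. Of 43 tested markers of all lists, 6 were called for non-maternal minus maternal (14%), 4 lower and 2 higher. Of all tested probe sets 8% were called, 1.35% lower and 6.64% higher. The lower ones were GZMB (-1.37) and NKG7 (-1.01), both of cytotoxic granules, the Fc receptor FCGR3 (-1.20) and MS4A7 (-1.48) of the monocyte list. The higher ones were PLD4 (0.50) of the plasmacytoid list and BCL11B (0.70), a T cell transcription factor. The plasmacytoid and monocyte lists were mixed. Of the other plasmacytoid markers TLR7 (0.36) was also higher, while CCDC50 (-0.43), TLR9 (-0.28) and TCF4 (-0.13) were lower. In the monocyte list LYZ (0.60), FCN1 (0.42) and S100A12 (0.21) were higher and all other markers lower. The part of these cell types in the differences of the response genes was not tested. The log2 ratio of 3' to 5' signal of actin and GAPDH, a measure of RNA integrity, covered 1.33 to 1.46 in the surrogate-peer group, 1.40 to 1.74 in the peer group and 1.55 to 2.23 in the maternal group. Of the maternal animals, arrays 2 and 5 had the lowest ratios, 1.55 and 1.61. The part of RNA integrity in the differences against maternal animals was not tested.

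**Figure D5:**
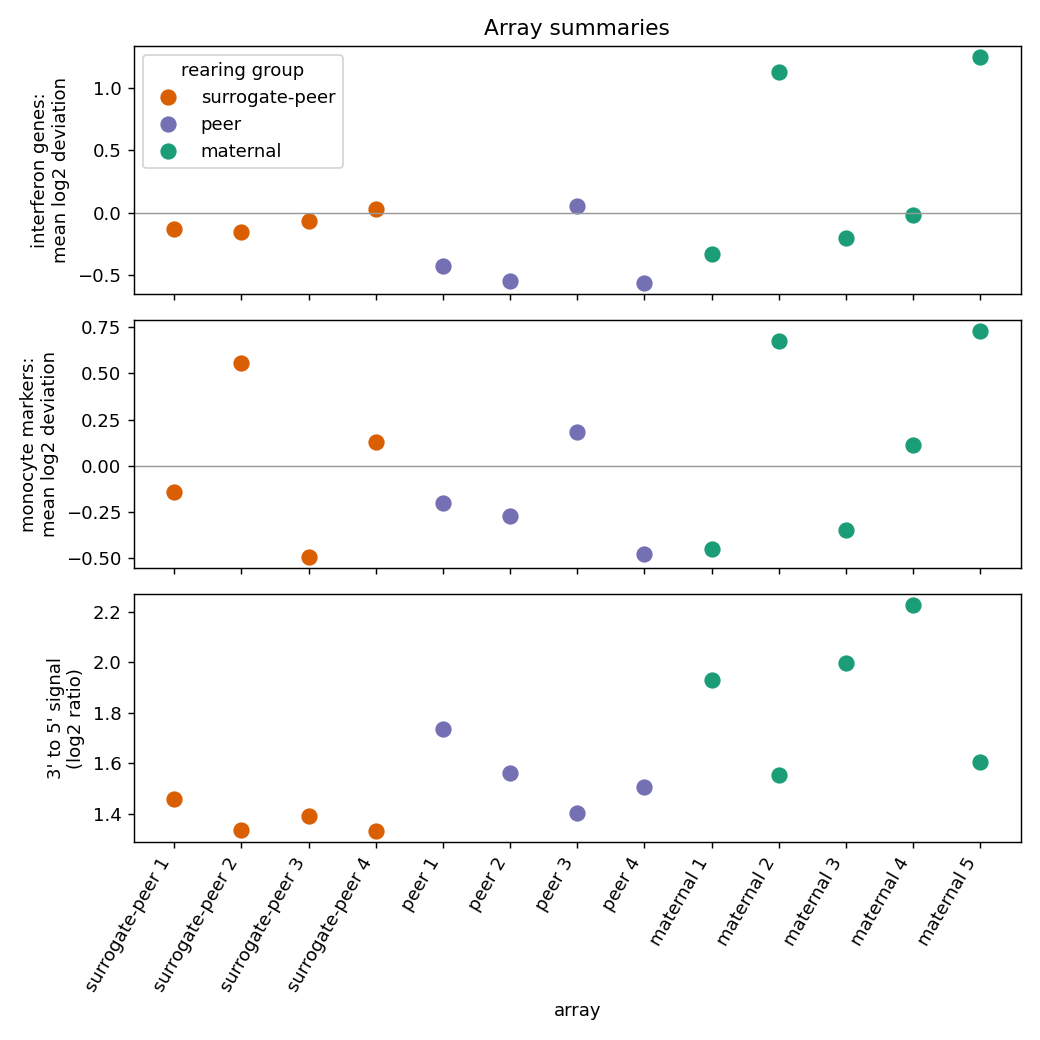
Mean log2 deviation of the 33 response genes (top), mean log2 deviation of 12 monocyte markers (middle) and log2 ratio of 3' to 5' signal of actin and GAPDH (bottom) on each array (horizontal axis), coloured by rearing group. Maternal arrays 2 and 5 are highest in the upper panels, at 1.13 and 1.25 for the response genes, and lowest of the maternal animals in the bottom panel.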

How the data were processed

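Per the submitters' processing notes the authors made the deposited values with RMA, and the values are on the log2 scale, as taken from the values themselves. The RMA version, its settings, the annotation and whether all arrays were normalized together are not given in the sources used. Of 52865 probe sets, 158 controls were left out, and 24956 of the rest were paired with 1 symbol, 361 with several and 27390 with none. Array medians ran from 5.995 to 6.061, and the highest correlation of 2 arrays was 0.993, so none was counted as a repeat. Depth has no meaning for arrays, whose number limits the precision.

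All 13 arrays entered 1 fit of limma 3.58.1 (lmFit, eBayes) in R 4.3.3, which was tested on simulated data. Tests were two-sided, and p-values were adjusted over 26352 probe sets by the Benjamini-Hochberg method, with a threshold of 0.05. Values of every array were given for genes called in any comparison, those with the largest SD over the arrays and at most 2 more per role class; non-members were eligible if called or among the 3 smallest p of their list. Single values of BST2, TRIM22 and the second DDX60 probe set, and the called cell type markers, were added after they were seen. The members, classes and lists were chosen with earlier results of these data known. Alternatives were another filter or none, centring, quantile normalization, array weights, the mean of probe sets, the title number as covariate, only the arrays compared, each array left out, and maternal arrays 2 and 5 left out.

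Of the member probe sets, 62 carry the gene ID that RefSeq gives their symbol and 3 another, for IFI44 and SP110. Genome positions were used only for the order of genes in the RefSeq assembly. For monocytes, plasmacytoid dendritic cells, T cells, B cells, natural killer cells, neutrophils, platelets and red cells the mean deviation over the measured markers was used.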

Additional observations from a re-analysis of the deposited data

Results flagged for a closer look

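In 84 sets of values, a group of 4 or 5 arrays for a gene or probe set described above, the highest or lowest array was checked for a gap to its neighbour above Dixon's critical value. The check flagged 4 of them (4.76%), and chance flags about 1 in 20. IRF7 at its brightest probe set was 10.05 on surrogate-peer array 1, with the other surrogate-peer arrays between 9.54 and 9.59. XAF1 was 8.68 on surrogate-peer array 4, with the others between 8.32 and 8.35. PLSCR1 was 8.09 on peer array 3, with the others between 5.20 and 5.61. EPSTI1 was 8.50 on the same peer array, with the others between 6.62 and 6.93. Maternal arrays 2 and 5 were not marked by this check, since a pair of high values leaves no gap between its own members and the check looks at 1 array at a time.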

How the results depend on the processing

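For non-maternal minus maternal, the number of response genes called moved from 2 to 9 with the title number as a covariate (11.9% of all tested probe sets called), to 0 without maternal arrays 2 and 5, and lay between 0 and 10 when single arrays were left out. The 10 were called without maternal array 1, beside 18.3% of all tested probe sets. The count was 0 without maternal array 4, maternal array 5, peer array 1, peer array 2 or surrogate-peer array 3. Those fits called only 0.114% to 2.71% of all tested probe sets. For peer minus maternal, 2 genes were called with array weights (IFIT1 and ISG20, beside 5.86% of all tested probe sets) and 2 with the title number (beside 6.9%), and 0 to 11 with single arrays left out, the 11 again without maternal array 1. For surrogate-peer minus maternal the range was 0 to 3, and for surrogate-peer minus peer 0 to 0. The median fold change lay between -0.53 and -0.28 for non-maternal, between -0.54 and -0.25 for surrogate-peer and between -0.59 and -0.31 for peer against maternal when single arrays were left out, and between 0.10 and 0.25 for surrogate-peer minus peer. The last was -0.34 with the title number, and the median for surrogate-peer minus maternal was 0.071 without maternal arrays 2 and 5. The cause was not tested. Over all tested probe sets, 2107 calls for non-maternal minus maternal became 30 to 4823 with single arrays left out, fewest without maternal array 4 and most without maternal array 1, 37 without maternal arrays 2 and 5 and 1337 with quantile normalization.

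Among genes, IRF7 at its brightest probe set turned to -0.021 with centring, -0.042 with quantile normalization, -0.046 with array weights, -0.58 with the mean of its probe sets and -0.17 without maternal arrays 2 and 5, and ran from -0.10 to 0.11 with single arrays left out. OAS1 turned to -0.078 with the title number. SAMD9L ran from -0.32 to 0.057 with single arrays left out. Without maternal arrays 2 and 5 IFI44 was 0.019, IFIT2 0.052, PARP9 0.13, IFIH1 0.14, XAF1 0.17, HERC6 0.23, SAMD9L 0.26, OAS3 0.29 and OAS2 0.39. IFIT1 passed the threshold with a stricter filter (adjusted p = 0.0473, limma) and with the title number (adjusted p = 0.0209). The title number covers 9 to 32 in the surrogate-peer group, 35 to 47 in the peer group and 31 to 55 in the maternal group. Maternal animals had the largest spread, and the fit shares 1 estimate of it between groups. No paired analysis was possible because the labels give no replicate numbers shared between groups. CMPK2 lies below the filter and was not refitted.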
